A study of Mus musculus with 3 samples.

Results

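The 10 genes described here encode transcription factors that build the extraembryonic lineages of the early mouse embryo. They were chosen by name and matched through their Ensembl IDs to 10 of the 50043 gene IDs in the table. Of these, 7 act in trophoblast (Cdx2, Gata3, Hand1, Tfap2c, Elf5, Eomes and Tead4) and 3 in primitive endoderm (Gata4, Gata6 and Sox17). RNA was sequenced from KH2 mouse embryonic stem cells in which Pold3, an accessory subunit of DNA polymerase delta, can be knocked out by induction. The 3 groups are the passages P0, P1 and P2, each with 1 library, and all share this genotype. The labels name no inducing agent, no time of induction and no uninduced control. Since each passage is a lone library, differences cannot be set against a spread between replicates, and p-values are left out.

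The first lineage choice of the embryo separates trophectoderm, which forms the placenta, from the inner cell mass. Tead4, held active by the Hippo pathway effector Yap1, switches on Cdx2 and Gata3 in outer cells, while Pou5f1 and Cdx2 repress each other in opposite lineages. The inner cell mass then divides into epiblast, marked by Nanog, and primitive endoderm, marked by Gata6, followed by Sox17 and Gata4. Embryonic stem cells derive from the epiblast and normally keep these programmes low, although single cells in culture can enter them.

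Values are FPKM, reads per kilobase of gene and per 1000000 reads of the library. A gene is said to have risen or fallen when log2(FPKM + 1) differed by at least 1 between 2 libraries and FPKM was at least 1 in 1 or both. This scale understates changes of low genes, so ratios of FPKM are given as well, with exact 95% intervals on the recovered reads that cover counting error only. A gene at the level of 3 reads on 2 kb would measure 0.0646 FPKM at P0, 0.0831 at P1 and 0.0669 at P2. Library totals lay between 18059914 and 23213528 reads. Pold3, which tests the labels, measured 49.2, 13.03 and 11.6 FPKM and fell at both later passages. In bulk RNA, more cells of a type and more RNA per cell cannot be told apart.

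RefSeq promoter windows (GRCm38.p6) of 4 of the 10 genes, in 5 windows, are used here and were read over the 250 bases before the start site. Gata6 was left out of this selection by choice, so the 4 genes do not count every member that could have been matched. The windows of Cdx2 and Gata3, which both rose by P2, and the CpG-richer of the windows of Elf5, the lowest member in every library, are shown 5′ to 3′ on the strand of the gene, with each CpG dinucleotide in capitals. Elf5 is known as a gene that CpG methylation of its promoter keeps silent in embryonic stem cells, and methylation was not measured here.
Cdx2, chr5:147307250-147307499, minus strand: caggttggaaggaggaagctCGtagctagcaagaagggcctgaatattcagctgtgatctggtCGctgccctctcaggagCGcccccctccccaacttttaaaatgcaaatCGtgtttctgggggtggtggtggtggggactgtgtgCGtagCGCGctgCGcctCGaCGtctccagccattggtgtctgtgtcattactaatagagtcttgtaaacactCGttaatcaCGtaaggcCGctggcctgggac
Gata3, chr2:9878601-9878850, minus strand: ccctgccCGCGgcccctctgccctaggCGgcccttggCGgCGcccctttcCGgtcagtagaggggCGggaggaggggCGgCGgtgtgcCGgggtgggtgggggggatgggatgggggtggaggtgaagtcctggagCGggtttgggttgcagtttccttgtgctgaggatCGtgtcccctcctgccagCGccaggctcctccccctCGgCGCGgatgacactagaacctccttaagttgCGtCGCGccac
Elf5, chr2:103423818-103424067, plus strand: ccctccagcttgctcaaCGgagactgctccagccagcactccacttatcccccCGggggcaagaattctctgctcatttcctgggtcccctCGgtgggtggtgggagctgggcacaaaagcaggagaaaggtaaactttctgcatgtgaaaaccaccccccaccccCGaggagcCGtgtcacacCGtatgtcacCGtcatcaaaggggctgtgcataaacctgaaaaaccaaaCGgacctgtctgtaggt

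The Cdx2 stretch held 13 CpG and the Gata3 stretch 19, against a median of 6 over 32817 windows of the same length. Both thus lay above the median, with 68.5% of all windows holding fewer CpG than Cdx2 and 80.3% fewer than Gata3. The Elf5 stretch shown held 8, and the other Elf5 window, at chr2:103411848-103412097, held 2. The Eomes stretch, at chr9:118477939-118478188, held 8. The letters GCCNNNGGC, the site form bound by the AP-2 family to which Tfap2c belongs, read the same on both strands. They occurred once or more in the Cdx2 and Gata3 stretches, in none of the other 3 windows, and in 13.7% of all windows. Gata3 held 3 such matches, which do not overlap, and Cdx2 held 1. These letters are rich in G and C, which made up 70.0% of the Gata3 and 55.2% of the Cdx2 stretch. The Elf5 windows held 56.8% (shown) and 62.8%, Eomes 46.4%, and the median window 52.4%. The share among windows of like G and C content was not computed. The letters AGATAA of GATA factors, on either strand, were in 0 of the 5 windows and in 9.99% of all. The TEAD letters GGAATG, on either strand, were in neither the Cdx2 nor the Gata3 stretch and once in the Elf5 window not shown, against 12.6% of all windows. The Elf5 window shown held the CDX letters TTTATG (10.8% of all) and the T-box letters GGTGTGA (3.33%) once each. The letters GGAAGT of ETS factors (19.7%), AACAAT of SOX factors (9.42%) and TATAAA of the TATA box (12.4%) were in 0 of the 5. Only these exact letters were sought, so variants such as TATATAAG, which the Eomes stretch held, were not counted. These matches describe letters only and were not tested for binding.

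Cdx2, the caudal homeobox factor that specifies trophectoderm, measured 0.171 FPKM at P0, 1.004 at P1 and 1.78 at P2, from 9, 41 and 90 reads. It was lowest at P0 and highest at P2, and the Poisson intervals of P0 and P1 did not overlap. Its ratio to P0 was 5.86 at P1 (interval 2.80 to 13.7) and 10.4 at P2 (interval 5.22 to 23.4). On the log2 scale it differed from P0 by 0.77 at P1 and rose by 1.24 at P2.

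Gata3, which acts beside Cdx2 downstream of Tead4, measured 0.282, 1.33 and 2.54 FPKM from 6, 22 and 52 reads. Its ratio to P0 was 4.71 at P1 (interval 1.85 to 14.2) and 8.98 at P2 (interval 3.86 to 25.6). It differed by 0.86 at P1 and rose by 1.46 at P2. This rise depends on the gene length behind the value: the deposited FPKM rests on 915 bases, the mean of 6 annotated transcripts, whereas the longest has 3215. With that length Gata3 measured 0.0804, 0.379 and 0.722 FPKM, the difference at P2 was 0.67, and it no longer counted as risen. The ratio does not depend on the length.

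Hand1, a basic helix-loop-helix factor needed for trophoblast giant cells and also expressed in mesoderm, measured 0.827, 5.07 and 7.11 FPKM from 26, 124 and 216 reads. It was low at P0 alone. Its ratio to P0 was 6.13 at P1 (interval 3.99 to 9.75) and 8.61 at P2 (interval 5.72 to 13.5), and it rose by 1.73 and 2.15 on the log2 scale. Hand1 was the 1 member that rose by P1.

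Tfap2c, an AP-2 factor that trophoblast stem cells require and that germ cells and naive stem cells also express, was the most abundant member in every library. It measured 25.9, 30.5 and 50.9 FPKM, from 1370, 1255 and 2598 reads, so most of its difference lay between P1 and P2. Its ratio was 1.18 between P1 and P0 (interval 1.09 to 1.27) and 1.67 between P2 and P1 (interval 1.56 to 1.79). Against P0 it was 1.96 at P2 (interval 1.84 to 2.10), a log2 difference of 0.95 just under the threshold. Among 21811 protein-coding genes, the share measured below Tfap2c went from 80.6% at P0 to 88.0% at P2.

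Elf5, an ETS factor that locks in trophoblast stem cell identity, was the lowest member in every library, at 0.0274, 0.106 and 0.455 FPKM. These values rest on 1, 3 and 16 reads, and no ratio is given for P1 against P0, where both libraries held 3 reads or fewer. At P2 the ratio to P0 was 16.6, with an interval of 2.58 to 695, and the ratio to P1 was 4.30 (interval 1.23 to 23.0). Elf5 stayed under 1 FPKM throughout. Its neighbour Cat, the catalase gene on the opposite strand, measured 43.0, 50.7 and 50.4 FPKM.

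Eomes, a T-box factor of trophoblast stem cells that also marks early mesoderm and endoderm, measured 6.06, 4.13 and 8.06 FPKM from 379, 201 and 486 reads. It was lowest at P1: the ratio to P0 was 0.682 there (interval 0.572 to 0.811), and the ratio of P2 to P1 was 1.95 (interval 1.65 to 2.31). At P2 it stood at 1.33 times P0 (interval 1.16 to 1.52). An antisense gene, Gm33460, overlaps Eomes and held 7, 17 and 10 reads. No source used here gives the strand setting of the counting, so reads of the pair cannot be told apart.

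Tead4, the DNA-binding partner of Yap1 upstream of Cdx2, measured 11.1, 12.4 and 12.4 FPKM from 391, 339 and 422 reads. The libraries lay close together, and P2 stood at 1.12 times P0 (interval 0.972 to 1.29) and 1.003 times P1 (interval 0.868 to 1.16). Its interval therefore held 1 in all 3 comparisons, P1 against P0 included (0.961 to 1.29).

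**Figure D1:**
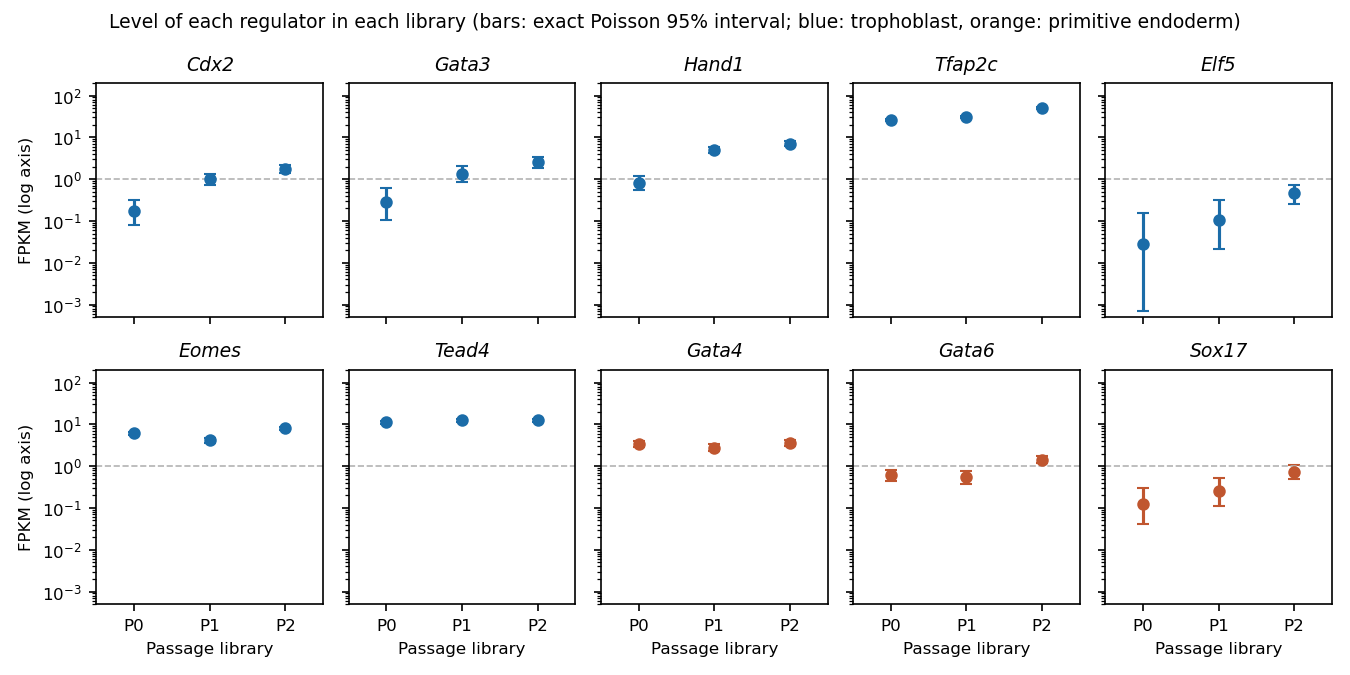
FPKM of each of the 10 regulators (log axis) in the P0, P1 and P2 libraries, with exact Poisson 95% intervals of the recovered reads; the dashed line marks 1 FPKM. Cdx2, Gata3 and Hand1 lie below the line at P0 and at or above it at P1 and P2, while Tfap2c, Tead4, Eomes and Gata4 lie above it in every library.

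Among the primitive endoderm factors, Gata4, a zinc finger factor of extraembryonic endoderm and heart, measured 3.39, 2.78 and 3.49 FPKM from 146, 93 and 145 reads. Its ratio of P2 to P0 was 1.03 (interval 0.812 to 1.30). Gata6, which starts the primitive endoderm programme, measured 0.607, 0.537 and 1.44 FPKM from 45, 31 and 103 reads. It was similar at P0 and P1, with a ratio of 0.885 (interval 0.542 to 1.43), and higher at P2, at 2.37 times P0 (interval 1.66 to 3.45) and 2.68 times P1 (interval 1.78 to 4.14). Its log2 difference from P0 at P2 was 0.60, under the threshold. Sox17, a factor of primitive and definitive endoderm, measured 0.125, 0.258 and 0.727 FPKM from 5, 8 and 28 reads. At P2 its ratio was 5.80 to P0 (interval 2.21 to 19.2) and 2.82 to P1 (interval 1.25 to 7.16), and it stayed under 1 FPKM throughout.

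Of the 10 regulators, 7 reached 1 FPKM in P0 or P1 and 1 rose at P1 (Hand1), where 4.12% of all genes compared rose. None fell, where 0.549% of all genes did. At P2, 8 reached 1 FPKM there or at P0, and 3 rose against P0 (Cdx2, Gata3 and Hand1), where 6.72% of all genes rose; none fell, where 1.16% did. All 3 were under 1 FPKM at P0 and passed the floor only through a later library, so they had to be higher there to be counted. Between P1 and P2 none of 8 rose or fell, where 0.780% and 0.883% of all genes did. Quantile normalization lowered the share of rises among changed genes over all genes from 88.2% to 74.9% at P1 and from 85.3% to 70.5% at P2.

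By the counting interval, 4 of the 7 members at or above 1 FPKM lay above P0 at P1 (Cdx2, Gata3, Hand1 and Tfap2c) and 1 lay below (Eomes). Over all genes compared these shares were 34.5% and 22.6%. At P2, 6 of 8 lay above P0 and none below, where 39.6% and 25.7% of all genes did. The 6 were the 4 named for P1 with Eomes and Gata6. Of them, 4 (Cdx2, Gata3, Hand1 and Gata6) reached the floor only through P2 and so had to have the larger value there, as had 3 of the 4 at P1, and nothing is read from these tallies against the shares over all genes. The same 6 of 8 lay above P1 at P2 and none below, where the shares over all genes were 24.1% and 18.9%. The comparisons share libraries and are not independent. FPKM was larger at P2 than at P0 for all 10 members as deposited, by a log2 difference of 0.03 to 2.15, and for 9 under median-of-ratios scaling or quantile normalization, where Gata4 differed by -0.07 and -0.17. The counting intervals of Tead4 and Gata4 held 1, and the median over all genes compared was 0.07. The share of all genes with a larger FPKM at P2 was not computed, so nothing is read from this tally either.

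**Figure D2:**
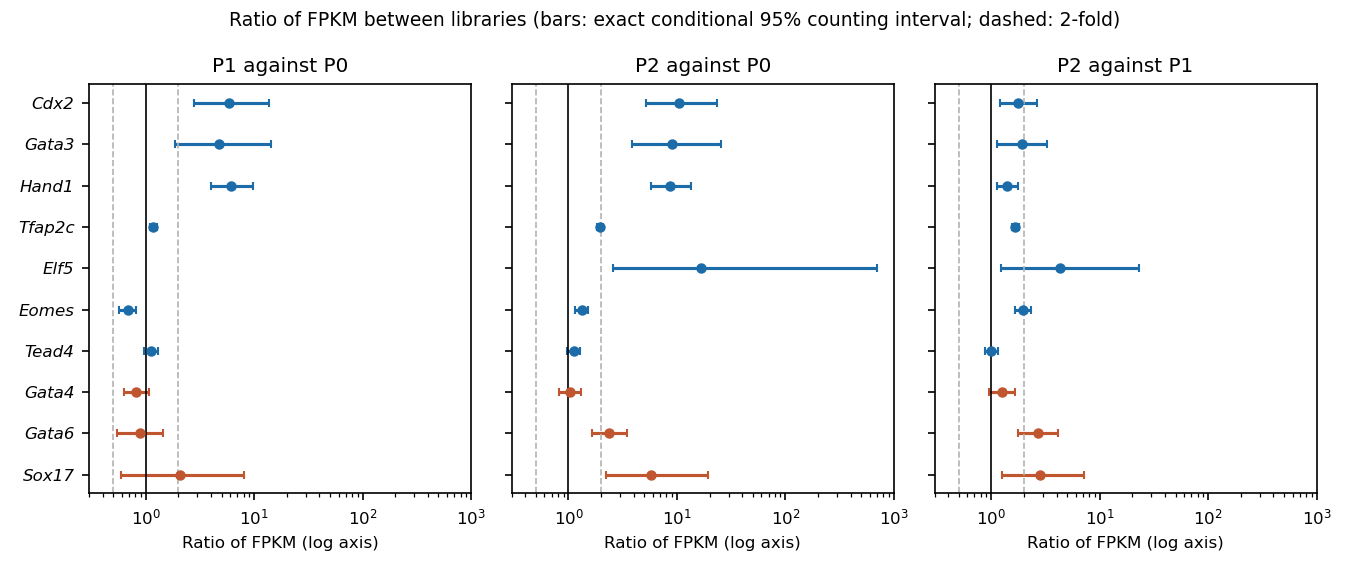
Ratio of FPKM between libraries for each regulator (log axis) with exact conditional 95% intervals; the solid line marks 1 and the dashed lines 2-fold. Cdx2, Gata3 and Hand1 lie well to the right against P0 at P1 and P2, Tead4 and Gata4 sit near 1, and Eomes lies left of 1 at P1.

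In the order of levels at P0, Tfap2c stood first, followed by Tead4, Eomes and Gata4, and the intervals of these neighbours did not overlap. Hand1, Gata6, Gata3, Cdx2, Sox17 and Elf5 followed, and each overlapped the next. At P1 Hand1 moved to the third place, ahead of Eomes but overlapping it. At P2 the order was Tfap2c, Tead4, Eomes, Hand1, Gata4, Gata3, Cdx2, Gata6, Sox17 and Elf5, where Eomes and Hand1 overlapped, as did Gata4, Gata3, Cdx2 and Gata6 from one to the next and Sox17 with Elf5. The lengths behind the values bear on this order, since the deposited length was the mean over transcripts for 9 members. For Gata6 it was 3194 bases, where the mean is 1561.

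**Figure D3:**
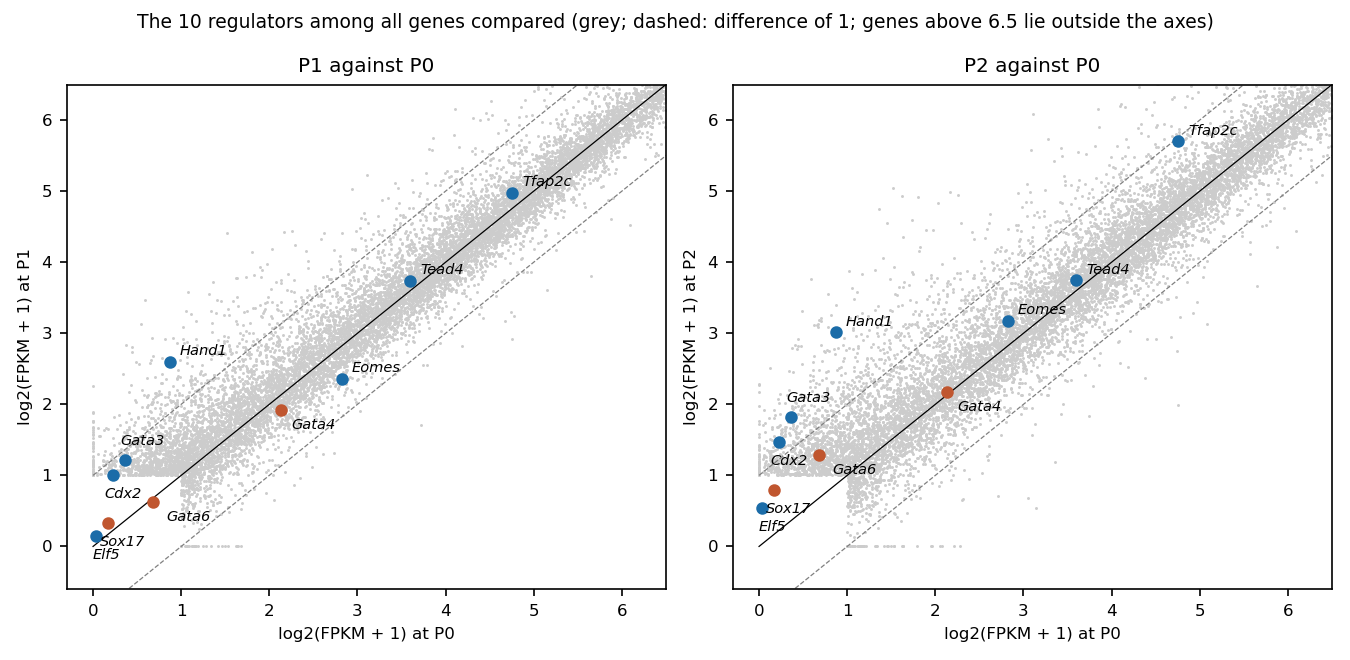
log2(FPKM + 1) at P0 against P1 (left) and P2 (right) for all genes compared (grey) and the 10 regulators (blue trophoblast, orange primitive endoderm); the dashed lines mark a difference of 1. Hand1 lies above the upper line in both panels, Cdx2 and Gata3 above it at P2, and Tfap2c just under it at P2 with a difference of 0.95.

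The paralogs of the 10 genes give a view of which family member these cells carry. Of 22 paralogs, 13 reached 1 FPKM at P0 or P2, and 2 rose by P2 while none fell, where 6.72% and 1.16% of all genes did. The median over all 22 was 0.17, beside 0.05 over the 25176 genes with a read in either library. Those that rose were the ETS factors Elf1, from 2.29 to 5.98 and 7.65 FPKM, and Elf3, an epithelial factor, from 13.4 to 18.0 and 28.2. Elf3 no longer counted as risen under median-of-ratios scaling or quantile normalization. Among the TEAD genes Tead2 (159.6, 136 and 128 FPKM) and Tead1 (54.2, 50.4 and 65.4 FPKM) exceeded Tead4 in every library, and Tead3 measured 3.01, 5.70 and 6.07 FPKM. Cdx1, the paralog of Cdx2, fell from 4.60 to 1.17 FPKM at P1 and stood at 6.38 at P2. Like Eomes, Cdx1 was lowest at P1. It exceeded Cdx2 at P0 and P2, and at P1 their intervals overlapped. Gata2, which acts with Gata3 in trophoblast, measured 1.11, 1.17 and 2.55 FPKM, so P2 stood at 2.30 times P0 (interval 1.63 to 3.28). Sox7, a partner of Sox17 in endoderm, measured 0.392, 0.823 and 1.25 FPKM.

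Of 28 trophoblast stem cell and placental genes, 10 rose by P2, where 6.72% of all genes did, none fell and 9 that reached 1 FPKM did neither. At P1, 4 had risen, where 4.12% of all genes did. Of the 19 that reached 1 FPKM at P0 or P2, 5 did so only at P2. Krt7, Gcm1, Plac1 and Wnt7b, which rose, were among these 5 and had to be higher at P2 to be counted. Gcm1 and Wnt7b likewise passed the floor at P1 only through P1. Nothing is therefore read from these tallies against the shares over all genes. The median over all 28 was 0.60. Gcm1, the factor that starts syncytiotrophoblast formation, rose from 0.542 to 2.97 and 7.68 FPKM, 14.2 times P0 at P2 (interval 9.52 to 22.02). Plac1, a placental surface protein gene, went from 1 read to 10 and 38, or 0.0410, 0.527 and 1.62 FPKM, a ratio of 39.4 with an interval of 6.65 to 1595. Igf2, a fetal growth factor, reached 20.9 FPKM from 2.71, and Wnt7b, a ligand needed for chorioallantoic fusion, 2.79 from 0.377. The simple epithelial keratin Krt19 reached 11 from 3.60, and Fgfr2, the receptor through which FGF4 maintains trophoblast stem cells, 4.90 from 1.48 FPKM. Fgfr2 no longer counted as risen with the longest transcript as gene length. Peg10, the list's most abundant gene at P0, measured 27.4, 49.3 and 44.8 FPKM.

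The list's markers of differentiated placental cells did not share one pattern. Gcm1 and Plac1 rose, as above, and so did Ascl2, a factor of the ectoplacental cone, from 1.32 to 3.95 FPKM at P2, a call lost under quantile normalization and with the longest transcript as gene length. Tpbpa, a spongiotrophoblast gene, and the prolactin family genes Prl3d1, Prl3b1 and Prl2c2 of giant cells were listed at 0 in all 3 libraries, and Ctsq held 1 read, at P1. The syncytin gene Syna stayed under 1 FPKM but held 3 reads at P0 and 24 at P2, a ratio of 8.29 (interval 2.52 to 43). Synb, the other syncytin gene, held 19 and 27 reads, a ratio of 1.47 (interval 0.789 to 2.80). Among 16 genes of the trophectoderm epithelium, 15 reached 1 FPKM at P0 or P2. By P2, 3 rose and none fell, where 6.72% and 1.16% of all genes did, and the median over all 16 was 0.39. They were the claudins Cldn4 (43.0, 93.7 and 99.7 FPKM) and Cldn6 (38.3, 97.1 and 87.4 FPKM), and Aqp3, a water and glycerol channel, which was 5.72 times P0 at P2 (interval 5.23 to 6.26).

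Of 24 genes of primitive and visceral endoderm, 16 reached 1 FPKM at P0 or P2, 3 of them only at P2. By P2, 4 rose and none fell, where 6.72% and 1.16% of all genes did, and the median over all 24 was 0.26. Sparc measured 126, 260 and 321 FPKM, Col4a1 29.1, 54.4 and 78.0, and Col4a2 8.26, 12.8 and 17.6, all matrix genes that other cell types also express. Other matrix genes of the list differed in direction. At P2, Lama1 stood at 0.550 times P0 (interval 0.520 to 0.582), Lamc1 at 0.757 and Nid1 at 0.802. Lamb1 stood at 1.29 times P0, and none of these passed the threshold. Plat, tissue plasminogen activator, reached 2.31 from 0.486 FPKM. It passed the floor only through P2 and so had to be higher there to be counted. Col4a2 and Plat no longer counted as risen under quantile normalization or with the longest transcript as gene length, nor did Col4a2 under median-of-ratios scaling. Apoe, the most abundant, measured 451, 504 and 519.5 FPKM. Markers of the lineage differed in level. The receptor gene Pdgfra held 15, 15 and 23 reads, the forkhead factor Foxa2 1 read in each library and Afp, alpha-fetoprotein of visceral endoderm, 0, 1 and 5. Visceral endoderm genes of transport were higher: between P0 and P2, Apoa1 measured 11.5 and 12.6 FPKM, Lrp2 7.59 and 8.92, Ttr 3.22 and 4.21, and Amn 2.12 and 2.46, none past the threshold. Sox7, also a paralog of Sox17, stood at 3.18 times P0 at P2 (interval 2.08 to 4.97), with a log2 difference of 0.69 under the threshold.

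Hippo pathway genes stand upstream of Tead4 and Cdx2, and were listed together with Yap1 targets such as Ccn1 and Ccn2. Of these 19 genes, 17 reached 1 FPKM at P0 or P2. The same 3 (Amotl1, Ccn1 and Ccn2) rose at P1 and at P2, where 4.12% and 6.72% of all genes did. None fell, and the median at P2 was 0.26. Ccn1 and Ccn2, matricellular genes widely used as readouts of Yap1 activity, measured 10.4, 23.9 and 22.8 FPKM and 8.42, 24.1 and 25.3 FPKM. Ankrd1, also listed as a Yap1 target, held 1, 4 and 3 reads and stayed under 1 FPKM. Ccn1 no longer counted as risen at P2 under median-of-ratios scaling or quantile normalization. Amotl1, an angiomotin that binds Yap1, rose from 17.2 to 39.1 and 48.4 FPKM. Nf2, an activator of the pathway and its most abundant gene at P0, measured 134, 127 and 102 FPKM, and Yap1 itself 117, 108 and 130.4 FPKM.

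The stem cell factors listed against these lineages summed to 2149, 1804 and 1834 FPKM, a sum that includes Esrrb, described below. Of 9 listed, 1 fell by P2 and none rose, where 1.16% and 6.72% of all genes did, and the median was -0.09. Klf4, a naive state factor, measured 229, 116 and 113 FPKM, a difference of -1.02 at P2 that passed the threshold narrowly and did not pass it in thinned reads. Esrrb, an orphan nuclear receptor of the naive state that trophoblast stem cells also need, measured 221 and 118 FPKM at P0 and P2, a ratio of 0.535 (interval 0.519 to 0.551), and counted as fallen only under median-of-ratios scaling. Pou5f1, the most abundant at 712, 746 and 670 FPKM, exceeded Cdx2 4152-fold at P0 (interval 2186 to 9082), 743-fold at P1 (interval 547 to 1036) and 377-fold at P2 (interval 307 to 469.6). Between P0 and P2, the counting intervals of Pou5f1 (ratio 0.941), Sox2 (0.775), Sall4 (0.939) and Zfp42 (0.827) lay below 1. Those of Klf4 and Esrrb did too, where 25.7% of all genes compared lay below. The intervals of Tbx3 and Prdm14 held 1. Nanog measured 179, 165 and 240 FPKM, and P2 stood at 1.34 times P0 (interval 1.30 to 1.38). It exceeded Gata6 295-fold at P0 (interval 220.2 to 405), 307-fold at P1 (interval 216 to 453) and 166-fold at P2 (interval 137 to 204). The 2 pairs were chosen after the values of Cdx2 and Gata6 were seen. The first ratio narrowed at both steps and the second between P1 and P2, and both rest on deposited lengths.

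**Figure D4:**
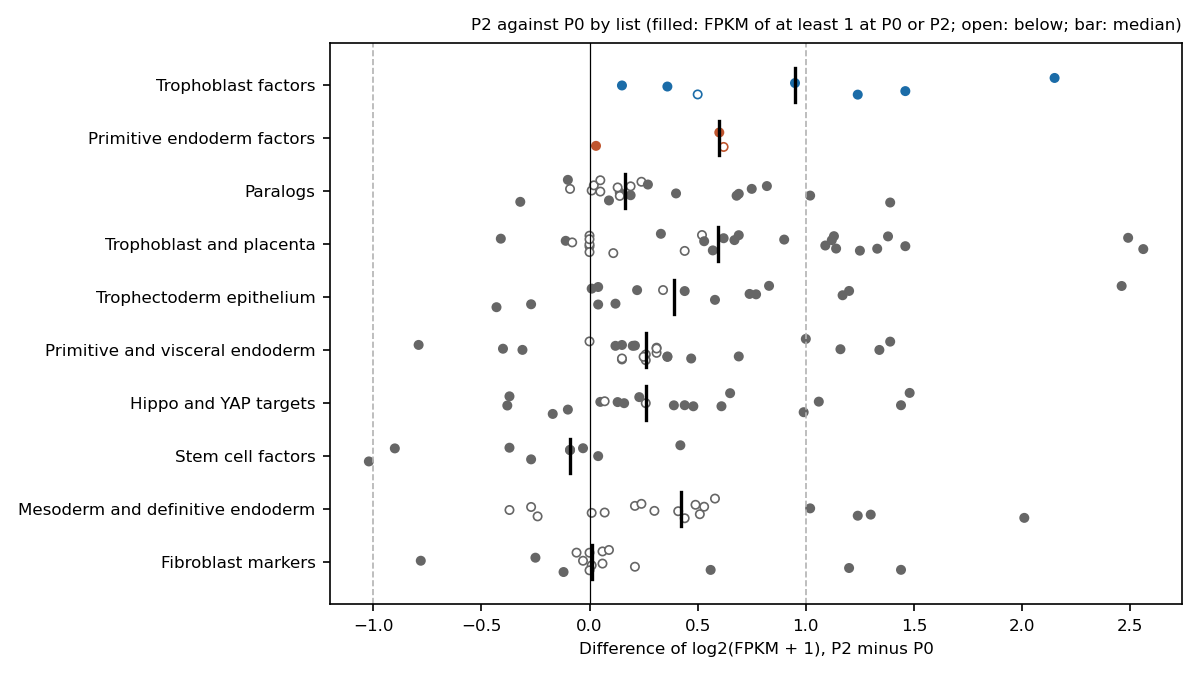
Difference of log2(FPKM + 1) between P2 and P0 for each gene of the 10 lists, filled where FPKM was at least 1 in 1 of the 2 libraries and open where it was not; bars mark the median over all genes of the list and dashed lines a difference of 1. The trophoblast and placental genes spread furthest to the right with Igf2 and Gcm1, and the stem cell factors centre near 0 with a median of -0.09.

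Hand1, Eomes, Gata4, Gata6 and Sox17 also mark mesoderm, heart or definitive endoderm, so genes of these tissues were set beside them. Of 18, 14 stayed under 1 FPKM at both P0 and P2. The 4 others rose by P2 and none fell, where 6.72% and 1.16% of all genes did. Of these, 3 were under 1 FPKM at P0 and passed the floor only through P2, so they had to be higher there to be counted. Tbx20, with a log2 difference of 1.02, no longer counted as risen under median-of-ratios scaling, quantile normalization or with the longest transcript as gene length. Wnt3 measured 0.672, 3.37 and 5.72 FPKM, Tbx20, a heart T-box factor, 0.710, 2.20 and 2.47, the chemokine receptor gene Cxcr4 0.604, 2.49 and 2.80, and the homeobox gene Msx2 2.04, 2.18 and 6.48. The summed level of the list was 8.71, 16.3 and 25.0 FPKM. T, which marks the primitive streak, held 11, 17 and 26 reads, and Mesp1, of early mesoderm, 5 in each library.

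Markers of fibroblasts, the usual feeder cells of stem cell cultures, were set beside the members as well. Of 15, 6 reached 1 FPKM at P0 or P2, and 2 rose and none fell by P2, where 6.72% and 1.16% of all genes did: Col1a1 from 1.98 to 7.09 FPKM and Thy1, which stem cells also express, from 4.21 to 11. Col1a1 no longer counted as risen with the longest transcript as gene length. The summed level was 204, 166 and 137 FPKM with Fn1, the most abundant at 189, 143 and 110, and 15.0, 23.4 and 26.9 FPKM over the other 14. Postn and S100a4 were listed at 0 in all 3 libraries, and Dcn held 2, 6 and 1 reads. The part of such cells in the rises of Cdx2, Gata3 and Hand1 was not tested.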

How the data were processed

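Total RNA of 3 samples, 1 per passage, was made into libraries by standard Illumina methods, per the labels' protocols. Expression reached GEO as a single FPKM table, deposited by the authors, with 50043 gene IDs. Per the submitters' processing notes, TopHat2 (2.0.9) and Bowtie2 (2.0.6) were used, with mm9 as genome. The sources used here do not give the counting program, its annotation or its strand setting. Since that build differs from the annotation at hand (GENCODE M21, GRCm38), genes carry no coordinates, and only RefSeq promoter windows carry those of GRCm38.p6.

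Symbols were matched for 49412 IDs. Whole reads were recovered from FPKM by finding the library totals (23213528, 18059914 and 22405670) and gene lengths that make all values whole within a relative tolerance of 1e-09, which succeeded for 26291 of 26291 IDs above 0. Where several multiples of a length fitted, the one nearest to the mean transcript length was taken, and 83.7% of IDs lay within 1 base of it. Recovered reads sum to 100.5% of the totals. Recovery and calls were tested on simulated data. Calls, floor and intervals are defined where first used. No test was possible with 1 library per passage, so p-values are absent, and lists are described by counts and medians. No deposited column was left unmapped.

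The 10 members and all lists were chosen with earlier results of these data known. Named from each of the 8 other lists were up to 6 genes past the threshold between P0 and P2, the largest first, and the most abundant gene at P0 (for 1 list not reported here); paralogs at 1 FPKM or more and neighbours within 10000 bases could be named beside their member, and Nanog, Esrrb, Yap1, Ascl2, Apoa1, Lrp2, Ttr, Amn, Syna, Synb, Pdgfra, Foxa2, Afp, T, Mesp1, Dcn, Ctsq and the genes listed at 0 were named after their values were seen. Each choice was changed in turn: the pseudocount (0.1), the floor (5 FPKM, or none), the scaling (3 others), the depth (thinned reads), the genes compared (no short RNAs or unnamed models) and, chosen after seeing the data, the longest transcript as gene length. Computations used Python 3.11.15 with pandas 2.3.3, scipy 1.17.1, matplotlib 3.10.9 and numpy 2.4.6.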

Additional observations from a re-analysis of the deposited data

How the results depend on the processing

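No paired analysis was possible because each passage has 1 library. Of 414 recomputed counts and medians, 382 stayed within 1.5 times the main count or within the interval of the median, and 32 moved. No reversal was defined for these. Removing the floor could not change a call, and a count of 0 under both settings was taken as unchanged. Of 270 recomputed log2 differences of members, 258 stayed within their counting interval, 12 moved and none of a called member reversed. The 258 include the settings that change only the floor or the genes compared, which cannot alter these differences. Median-of-ratios scaling moved the median of all genes from 0.06 to -0.05 at P1 and from 0.07 to -0.05 at P2. Over all genes, 548 rose and 73 fell at P1 and 905 and 156 at P2; these were 1079 and 175, and 1569 and 286, with a pseudocount of 0.1, and 310 and 32, and 512 and 87, with a floor of 5 FPKM.

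Hand1 rose by P1 and P2 under every alternative. Against P0, 3 members rose at P1 with a pseudocount of 0.1 (Cdx2, Gata3 and Hand1) and 2 when rescaled to 1000000 per library (Gata3 and Hand1). At P2, 1 rose with a floor of 5 FPKM (Hand1), since Cdx2 and Gata3 never reach that level, and 2 with the longest transcript as length (Cdx2 and Hand1). Between P1 and P2, 1 rose with a pseudocount of 0.1 (Gata6).

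Among the other lists, a pseudocount of 0.1 gave 5 genes of the Hippo and Yap1 target list and 2 primitive endoderm genes that rose by P1. It gave 5 paralogs that rose by P2, with medians at P2 of 1.07 for mesoderm and 0.49 for primitive endoderm genes. A floor of 5 FPKM left 2 trophoblast and placental genes, 0 mesoderm genes and 0 fallen paralogs at P1, and 5 trophoblast and placental and 2 mesoderm genes at P2. Median-of-ratios scaling gave 0 risen paralogs, 0 primitive endoderm genes, 1 epithelial gene, 1 fibroblast marker and 1 fallen stem cell factor at P1, and 1 risen paralog and 2 fallen stem cell factors at P2. Quantile normalization gave 0 paralogs, 0 fibroblast markers and 1 mesoderm gene at P1, and 1 paralog and 2 primitive endoderm genes at P2, with a primitive endoderm median of 0.12. Thinned reads gave 0 fallen stem cell factors at P2. The longest transcript as length gave 0 fibroblast markers and 1 mesoderm gene at P1, and 1 fibroblast marker and 2 primitive endoderm genes at P2. The cause of these moves was not tested. Depth limits Elf5, Sox17, Gata3 and Cdx2, with fewer than 10 reads each at P0.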
